A study of Mus musculus with 12 samples.

Results

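The genes described here are 10 regulators of mitochondrial biogenesis: the coactivators Ppargc1a and Ppargc1b, the nuclear receptors Ppara, Ppard, Esrra, Esrrg and Rxrg, the transcription factors Nrf1 and Gabpa, and the mitochondrial DNA factor Tfam. They were picked by gene symbol and make up 10 of the 15344 genes in the expression tables. RNA-Seq of quadriceps muscle was performed on 12 mice with a C57BL/6 background, all 6 months old, in 3 groups of 4. The first group was untreated wild-type (WT) mice. The second was GAA knock-out (KO) mice, which lack acid alpha-glucosidase, the lysosomal enzyme that breaks down glycogen, and which received PBS. The third, called AAV, was GAA knock-out mice that received AAV2/8-LSPhGAApA at 2 months of age through the tail vein (2e12 vg/kg) and were examined 4 months later. This vector expresses human GAA from a liver-specific promoter, so the muscle of these mice is reached by enzyme from the blood. The vector was given to male mice. The sex of the WT mice is not given in the sources used here.

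Mitochondria are built from proteins encoded mostly in the nucleus, and the coactivators PGC-1α (Ppargc1a) and PGC-1β (Ppargc1b) switch on these genes by docking onto nuclear receptors and respiratory factors. The PPARs, which dimerize with retinoid X receptors, drive fatty acid oxidation, and the estrogen-related receptors (ERRs) drive oxidative phosphorylation and the citric acid cycle. NRF1 and the ETS factor GABPA (also called NRF2α) act on respiratory chain genes and on Tfam, whose protein enters the mitochondrion to package and transcribe its DNA. In skeletal muscle this network is best known for its response to endurance exercise and for its high activity in slow, oxidative fibres.

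Sequences upstream of the gene starts were taken from RefSeq (GRCm38.p6), in which 9 of the 10 genes had an entry, with 14 starts in all. They were searched on both strands, over the 250 bases before each start, for letters of sites that this network is known to use: GCGCATGC (core of an NRF1 site), CCGGAAG (ETS core), TGACGT (part of a cyclic AMP response element, CRE), AAGGTCA (single nuclear receptor site) and TATTTATA (core of a MEF2 site). No motif contains another. A match was found for 8 of the 9 genes with an entry. The share of all genes with any of these motifs was not counted. For 7 genes, 30 bases are shown as the letters that factors of this network, or inputs to it, are known to bind, with the motif in capitals on the gene's strand.
Ppargc1a: aggtgccctcccACGTCActgagctccagt
Ppara: ggctcggtggcGCATGCGCgcggactaggg
Rxrg: atcggggttgaAAGGTCAgctgaaagcttc
Esrra: ccccctgttttGCATGCGCaggccggcccc
Esrrg: taaaactttgcTATTTATAgtctacgcccg
Gabpa: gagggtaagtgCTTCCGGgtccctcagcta
Tfam: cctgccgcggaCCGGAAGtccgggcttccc

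The Ppargc1a stretch (chr5:51567758-51567787, minus strand) carries the CRE letters in reverse, 50 to 45 bases before the start, and 6.47% of all 32851 promoters in the table hold these letters within 250 bases. The Ppara stretch (chr15:85735736-85735765, plus strand) has the NRF1 core in reverse 29 to 22 bases before the start, and again, overlapping it, on the gene's strand 31 to 24 bases before. In Esrra (chr19:6921824-6921853, minus strand) the NRF1 core lies in reverse, 34 to 27 bases before the start, and 2.26% of promoters hold it. The ETS core is 93 to 87 bases before the Gabpa start (chr16:84835020-84835049, plus strand), in reverse, and 47 to 41 bases before the Tfam start (chr10:71238073-71238102, minus strand), and 6.91% of promoters hold it. The Rxrg receptor site (chr1:167618165-167618194, plus strand) is 89 to 83 bases before one of its starts, against 4.08% of promoters, and the Esrrg MEF2 core (chr1:187608974-187609003, plus strand) is 21 to 14 bases before the start, against 1.56%. The MEF2 core is also found 98 to 91 bases before one start of Nrf1. GENCODE M21 draws an exon of Tfam, its 5′ UTR, over the Tfam stretch, and exons of Gabpa and of its opposite-strand neighbour Atp5j over the Gabpa stretch. These are matches of letters only, and no binding was measured.

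Between 22122233 and 47379737 reads per library were counted, and values are normalized read counts, in which each library was divided by its own size factor. The targeted gene went against its labels. Gaa was listed at 343, 14640.2, 324 and 460.3 normalized counts in WT mice 1 to 4, at 11936 to 13074 in the 4 KO mice, and at 947, 587, 499.6 and 9854 in AAV mice 1 to 4. Gaa RNA was thus high in all libraries labelled KO, low in 3 of 4 libraries labelled WT, and the libraries labelled WT 2 and AAV 4 stood apart from their groups. Which part of the gene the allele removes is not given in the sources used here, so whether these reads should be lost is not known. Groups are therefore named only by their labels below, and each direction is one between labels. Muscle-defining genes such as Ckm and Ttn were abundant in all 12 libraries, with summed counts of the 10 definers between 3282420 and 5717320.

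All 10 regulators were detected in every library, with at least 112 reads for the lowest value (Ppara). To compare genes, counts were divided by the length of all exons of the gene in kilobases. On this scale the level over the 12 libraries was highest for Esrra (median 961 normalized counts per kb, range 509 to 1381) and Rxrg (927, range 471 to 1680), and these neighbours overlapped. Tfam followed at 328 (range 220.5 to 419). A middle group was formed by Ppard (median 162), Ppargc1a (156) and Ppargc1b (151), whose ranges overlapped, and Gabpa came next with a range of 59.2 to 142 that reached into theirs. The lowest were Esrrg (40.9), Ppara (40.5) and Nrf1 (37.1), which also overlapped one another. Both ERRs bind similar DNA sites, but Esrrg was between 0.0176 and 0.0985 of Esrra per kb in every library.

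**Figure D1:**
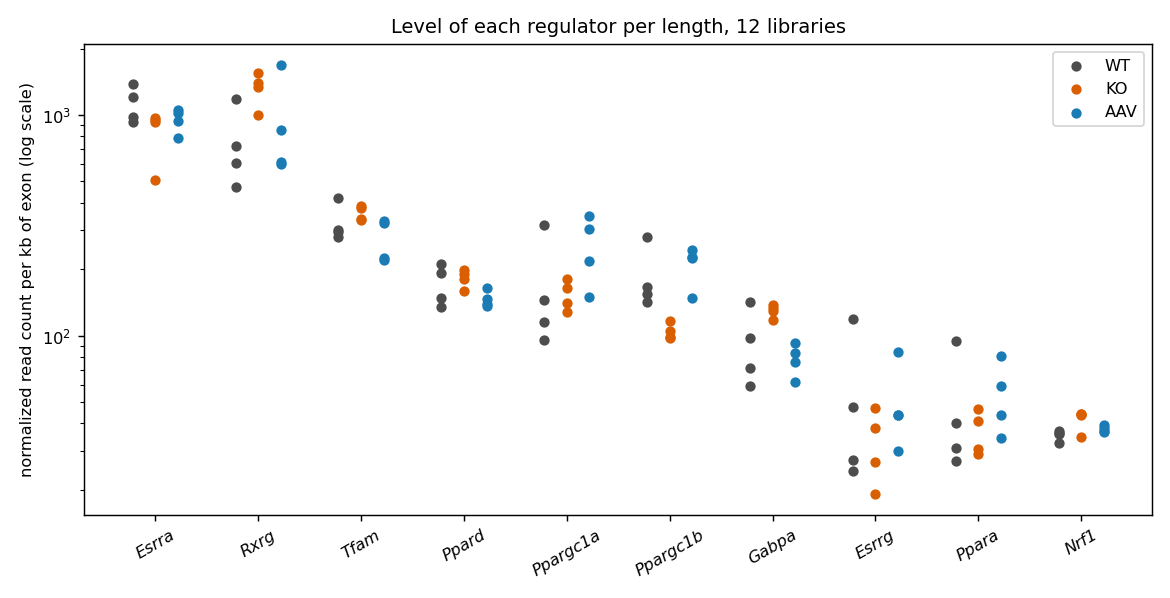
Normalized read count per kilobase of exon (log axis) for each regulator, ordered by its median, with 1 point per library and colours for the libraries labelled WT, KO and AAV. Esrra and Rxrg sit highest, with medians of 961 and 927, and Nrf1 lowest, with a median of 37.1.

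The spread between libraries was unequal among the 10 genes. The standard deviation of log2(normalized count + 1) over the 12 libraries was smallest for Nrf1 (0.14), Ppard (0.23) and Tfam (0.28), and largest for Esrrg (0.75), Rxrg (0.62) and Ppargc1a (0.60). Part of the spread lay within groups. WT mouse 3 had the highest count of the 4 WT mice for 7 of the 10 regulators, where it was the highest for 34.7% of the genes tested. AAV mouse 2 was highest for 6 of 10 in its group (22.1% of genes), and AAV mouse 4 was lowest for 6 of 10 (31.2% of genes).

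**Figure D2:**
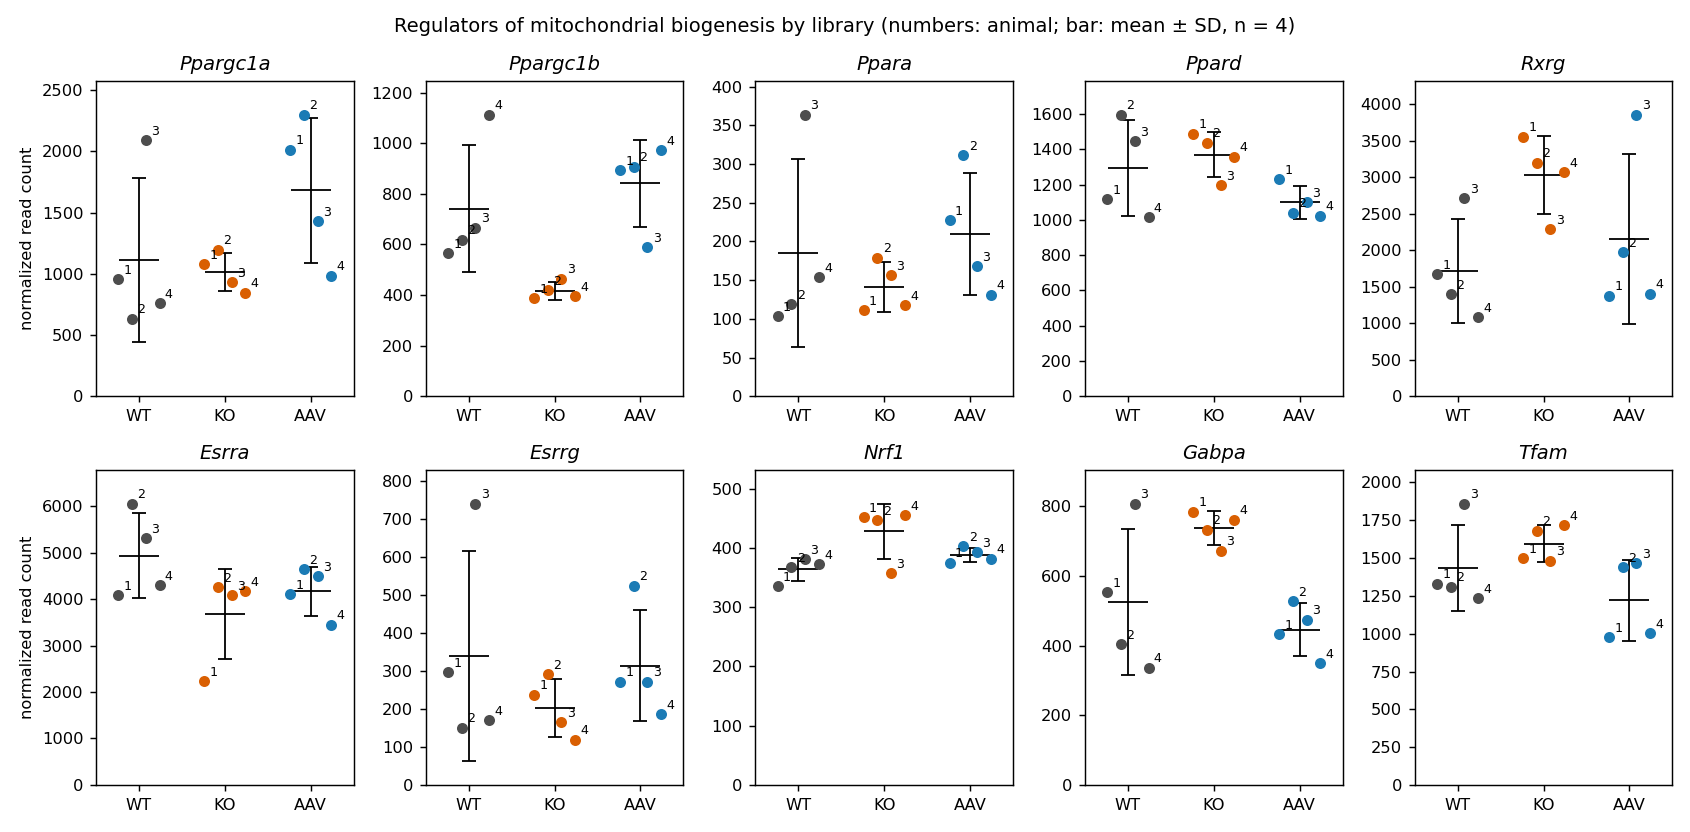
Normalized read count (axes from 0) of each regulator in the 12 libraries, with points numbered by animal and bars giving the mean ± SD of 4 mice labelled WT, KO or AAV. The 4 KO points of Ppargc1b, between 387 and 464, lie below all WT and AAV points, and those of Gabpa, between 672 and 784, lie above all AAV points.

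The first comparison, between the libraries labelled KO and WT, addresses which genes differ between the knock-out and wild-type labels. Of the coactivators, Ppargc1b was lower in the libraries labelled KO and Ppargc1a did not pass the test. Among the receptors, Rxrg was higher. The remaining receptors, Nrf1, Gabpa and Tfam did not pass. Of the 10 regulators, 2 passed (adjusted p under 0.05, limma with Benjamini-Hochberg adjustment), where 27.6% of all 14859 genes tested were called, so the share among the regulators was no larger than the background. The higher call (Rxrg) stands against 12.3% of all genes called higher and the lower call (Ppargc1b) against 15.3% called lower. No regulator reached an absolute log2 fold change of 1, which 13.9% of all genes did together with the adjusted p. An unadjusted p under 0.05 was found for 3 of the 10, against 42.4% of all genes, and the groups did not overlap for 1 of the 10, against 28.3%. The median log2 fold change was 0.06 over the 10 and 0.02 over all genes.

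Ppargc1b, the coactivator that keeps basal mitochondrial content high and drives oxidative fast fibres, was counted at 566, 619, 666 and 1113 in WT mice 1 to 4 and at 387, 419.9, 464 and 394 in KO mice 1 to 4. All KO values lay below all WT values, as they did for 15.1% of all genes, and WT mouse 4 was the highest. The mean was 741 ± 251 (SD, n = 4) in WT and 417 ± 34.9 (n = 4) in KO, a log2 fold change of -0.78 (SE 0.20, adjusted p = 0.0208, limma). With each library left out in turn it stayed between -0.89 and -0.57, and the call was lost without KO mouse 1, 2 or 4 (adjusted p up to 0.0587). It was also lost with a correction for GC content (-0.58, adjusted p = 0.0681). At 57.8% GC the exons of Ppargc1b were the richest in GC of the 10 genes.

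Ppargc1a, the coactivator induced by exercise, fasting and cold, was counted at 955, 633, 2093 and 761 in WT and at 1079, 1196, 929 and 844 in KO. The KO values lay inside the WT range, and WT mouse 3 alone was above them. The log2 fold change was 0.02 (SE 0.32, adjusted p = 0.969, limma), and without WT mouse 3 it was 0.38. Within each library, Ppargc1b per kb was 0.580 to 0.826 of Ppargc1a in the libraries labelled KO, and 0.525 to 2.42 of it in those labelled WT, so this ratio overlapped.

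Rxrg, the retinoid X receptor enriched in skeletal muscle and a partner of the PPARs, was counted at 1670.4, 1399, 2714 and 1083 in WT and at 3559.5, 3203, 2287 and 3073 in KO. One WT value, that of mouse 3, was above the lowest KO value, that of mouse 3, so that the groups overlapped. The mean was 1716 ± 707 in WT and 3031 ± 537 in KO (SD, n = 4 each), a log2 fold change of 0.89 (SE 0.26, adjusted p = 0.0307, limma). This call was held in 2 of the 8 fits that left out a library, those without WT mouse 3 (1.13, adjusted p = 0.000678) and without KO mouse 3, and the highest adjusted p of the other 6 was 0.0851. Fitting all 12 mice together gave an adjusted p of 0.0598 and the replicate number as a block 0.0593.

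Ppara, the PPAR of fasting and fat oxidation, was counted at 103 to 364 in WT and 111 to 179 in KO, with a log2 fold change of -0.23 (SE 0.36, adjusted p = 0.657, limma). Ppard, the main PPAR of muscle, was counted at 1016 to 1596 in WT and 1198 to 1488 in KO (0.10, SE 0.16, adjusted p = 0.651). Esrra, the ERR through which PGC-1α reaches respiratory genes, was counted at 4080.1, 6059, 5312 and 4305 in WT and at 2234, 4253, 4089 and 4176 in KO. KO mouse 1 was far below the others and the remaining groups overlapped, with a log2 fold change of -0.45 (SE 0.22, adjusted p = 0.150) that became -0.23 without that mouse. Esrrg, the ERR of highly oxidative tissue, ranged from 151 to 740.2 in WT and from 119 to 291 in KO (-0.51, SE 0.47, adjusted p = 0.435), and without WT mouse 3 the log2 fold change was -0.0328 (adjusted p = 0.942).

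Nrf1 was counted at 336 to 381 in WT and at 452, 447, 358 and 455 in KO, where KO mouse 3 fell within the WT range (0.23, SE 0.13, adjusted p = 0.208, limma). Gabpa was counted at 553, 404, 808 and 336 in WT and at 784, 732, 672 and 761 in KO. Only WT mouse 3 was as high as the KO mice, and the log2 fold change of 0.57 (SE 0.24) had an adjusted p of 0.101. Without WT mouse 3 it was 0.80 (adjusted p = 0.00282), without WT mouse 4 it was 0.38 (adjusted p = 0.240), and with the GC correction 0.28 (adjusted p = 0.254). Tfam, at 1237 to 1861 in WT and 1483 to 1718 in KO, had a log2 fold change of 0.17 (SE 0.15, adjusted p = 0.402), which became 0.30 without WT mouse 3 (adjusted p = 0.0351). Leaving out that mouse raised the number of regulators called to 4 and the number of all genes called from 4097 to 7163.

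The second comparison, between the libraries labelled AAV and KO, addresses which genes differ between the labels with and without the vector. It shares the KO libraries with the first. Ppargc1b was higher in the libraries labelled AAV and Gabpa was lower. Tfam did not overlap between the groups but did not pass the test, and neither did Ppargc1a. Of the 10 regulators 2 were called, against 26.3% of all 14894 genes tested, 12.8% called higher and 13.4% called lower. Scaled by total reads, the split over all genes was 2397 higher and 1270 lower in place of 1911 and 1999. None reached an absolute log2 fold change of 1 with the adjusted p, against 8.98% of all genes. An unadjusted p under 0.05 was found for 5 of the 10, against 41.1%, and the groups did not overlap for 3 of the 10, against 30.6%. The median log2 fold change was 0.04 over the 10 and over all genes.

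**Figure D3:**
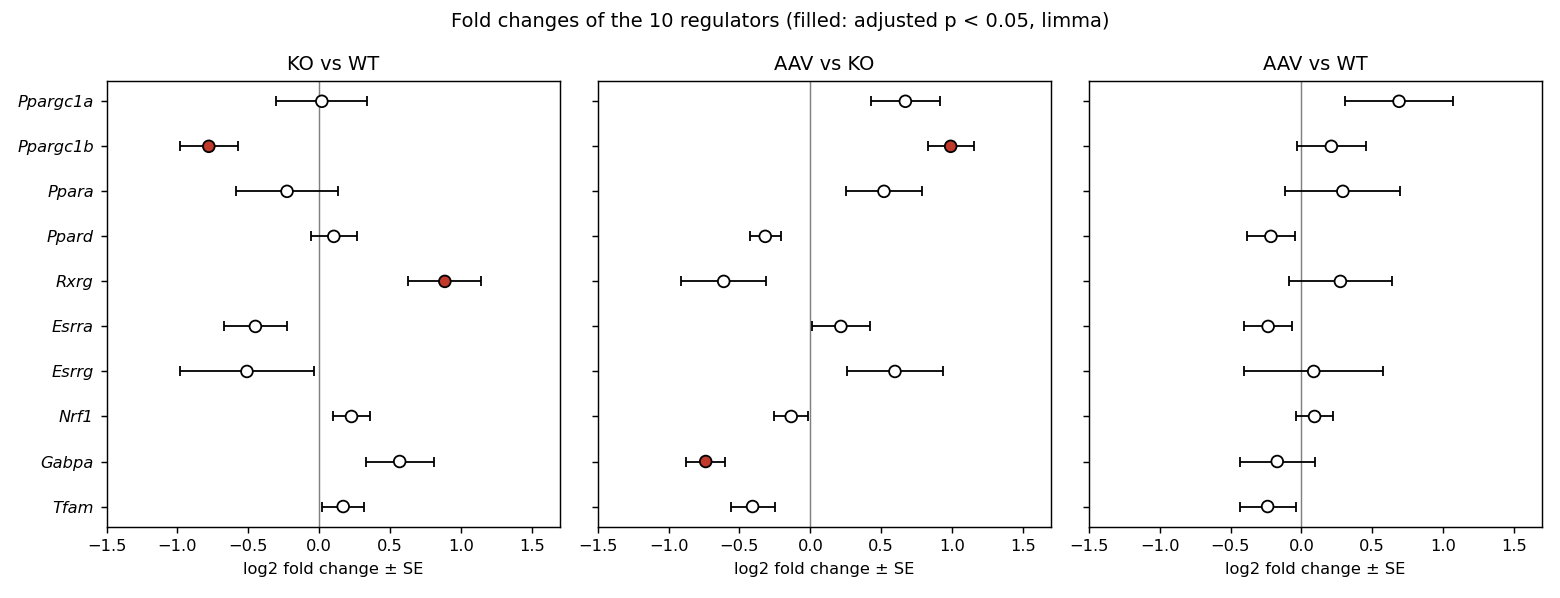
Log2 fold changes with standard errors of the 10 regulators in the 3 comparisons of libraries labelled WT, KO and AAV, with filled points where the adjusted p was under 0.05 (limma). Ppargc1b and Rxrg are filled in KO vs WT, at -0.78 and 0.89, Ppargc1b and Gabpa in AAV vs KO, at 0.99 and -0.74, and no gene in AAV vs WT.

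Ppargc1b was counted at 894, 908, 589 and 973 in AAV mice 1 to 4, above every KO library, with AAV mouse 3 closest to them. No overlap with AAV higher was seen for 14.8% of all genes. The mean was 841 ± 171 (SD, n = 4) against 417 ± 34.9 in KO, a 1.99-fold difference (log2 0.99, SE 0.16, adjusted p = 0.0050, limma). The call was held in all 8 fits that left out a library (0.91 to 1.15, adjusted p up to 0.0198) and in all 10 other alternatives (adjusted p up to 0.0255).

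Ppargc1a was counted at 2012, 2298, 1430.2 and 983 in AAV mice 1 to 4, and AAV mouse 4 lay within the KO range of 844 to 1196 while the other three lay above it. The mean was 1681 ± 589 against 1012 ± 156 in KO (SD, n = 4 each), a log2 fold change of 0.67 (SE 0.24, adjusted p = 0.0662, limma). It passed in 5 of 10 other alternatives, among them DESeq2 on the recovered reads (0.72, adjusted p = 0.0193), and without AAV mouse 4 (0.90, adjusted p = 0.0109), the library whose Gaa count stood apart. It was furthest from passing in the fit of all 12 mice (adjusted p = 0.168).

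Gabpa, the DNA-binding subunit of the ETS factor, was counted at 433, 528, 474 and 349.6 in AAV mice, all below the lowest KO count of 672, as for 15.8% of all genes. The mean was 446 ± 75.0 against 737 ± 48.3 (SD, n = 4 each), a log2 fold change of -0.74 (SE 0.14, adjusted p = 0.00764, limma), and it was called in all 8 fits that left out a library and all 10 other alternatives. The correction for GC content left -0.48 (adjusted p = 0.0144), and Gabpa, at 41.4% GC, was the poorest in GC of the 10 genes. Its partner subunits Gabpb1 and Gabpb2 had log2 fold changes of 0.18 (adjusted p = 0.351) and 0.03 (adjusted p = 0.885). Exons of Atp5j on the opposite strand share 397 bases with those of Gabpa, 6.98% of its exon length, and whether counting used the strand is not given in the sources used here.

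Tfam was counted at 979, 1441, 1467 and 1002 in AAV mice, all below the lowest KO count of 1483. AAV mice 1 and 4 were far lower than AAV mice 2 and 3. The log2 fold change was -0.41 (SE 0.16, adjusted p = 0.0775, limma), and it passed only without AAV mouse 3 (-0.50, adjusted p = 0.0311) among the 8 fits without a library. Scaling by total reads, which moved the median of all genes in this comparison from 0.04 to 0.21, left -0.24 for Tfam (adjusted p = 0.178). Nrf1, at 375 to 403 in AAV mice, had a log2 fold change of -0.13 (SE 0.12, adjusted p = 0.408), whose sign turned to 0.03 with that scaling.

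Rxrg was counted at 1378, 1973, 3858 and 1403 in AAV mice, with mouse 3 above every KO library and the other three below all of them. The log2 fold change was -0.61 (SE 0.30, adjusted p = 0.150, limma), and without AAV mouse 3 it was -0.94 (adjusted p = 0.00584). Ppard, at 1022 to 1231, overlapped the KO libraries in mouse 1 alone (-0.32, SE 0.11, adjusted p = 0.0572) and was called by edgeR and DESeq2 on recovered reads (adjusted p = 0.0448 and 0.0247). Scaled by total reads it was -0.15 (adjusted p = 0.366), and with a length correction -0.18 (adjusted p = 0.204). Ppara, at 131 to 311, had a log2 fold change of 0.52 (SE 0.27, adjusted p = 0.172), Esrra, at 3448 to 4638, of 0.22 (SE 0.21, adjusted p = 0.451), and Esrrg, at 185 to 524, of 0.60 (SE 0.34, adjusted p = 0.210).

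**Figure D4:**
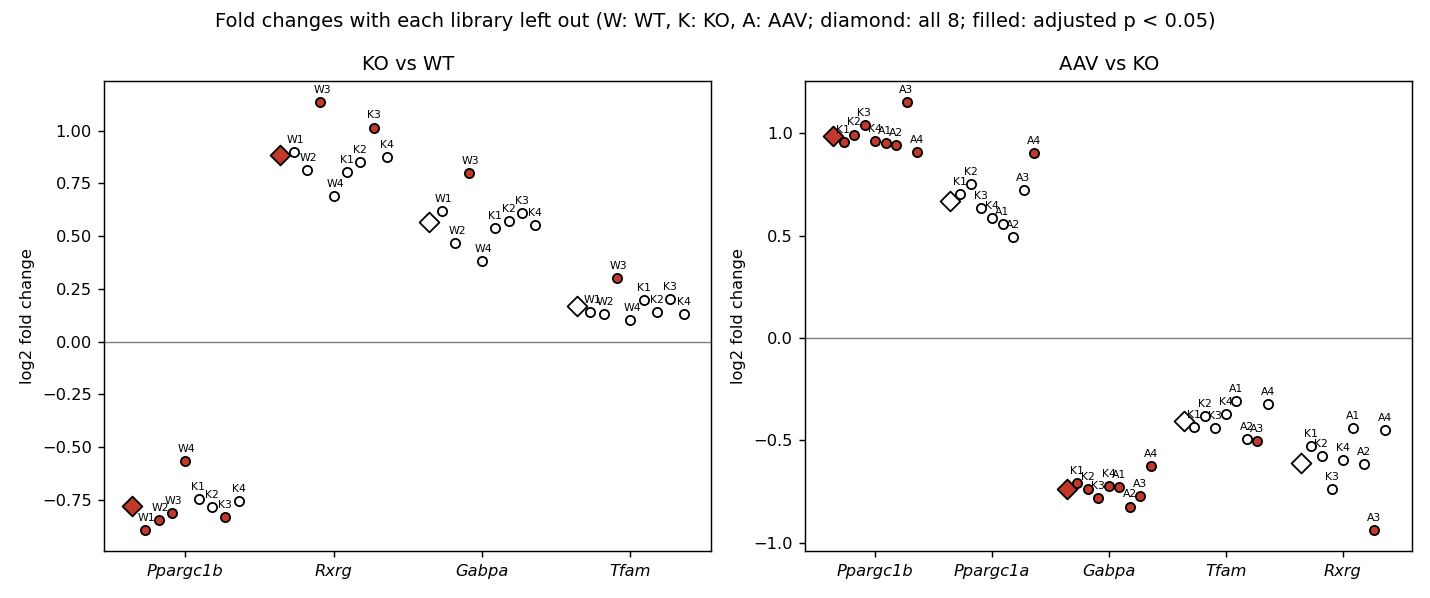
Log2 fold change of the regulators called in any fit shown, with all 8 libraries (diamond) and with each library left out (points named by the library removed: W for WT, K for KO, A for AAV), filled where the adjusted p was under 0.05 (limma). Ppargc1b and Gabpa are filled in all 9 fits of AAV vs KO, and Gabpa and Tfam are filled in KO vs WT only without WT mouse 3.

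The third comparison, between the libraries labelled AAV and WT, addresses which genes differ between the treated and wild-type labels. None of the 10 regulators was called, at an adjusted p under 0.05 or an unadjusted p under 0.05, where 1.29% of all 14939 genes passed the adjusted and 18.2% the unadjusted p (limma). Higher calls were 0.951% and lower calls 0.341% of all genes (142 and 51 genes, or 283 and 35 when scaled by total reads), and 0.951% passed both the adjusted p and a log2 fold change of 1 in size. DESeq2 and edgeR on recovered reads also called 0 of 10. The groups overlapped for all 10 genes, against 11.7% of genes without overlap, 6.69% higher and 4.97% lower. The smallest adjusted p was that of Ppargc1a (log2 fold change 0.69, SE 0.38, adjusted p = 0.364), and the fold changes of the 10 lay between -0.24 (Tfam) and 0.69. With standard errors of 0.13 to 0.49, differences of the size seen for Ppargc1b in the other comparisons could have been missed for several of these genes. Leaving out the libraries labelled WT 2 and AAV 4 together also called 0 of 10. The gene lists described next held 0 calls in AAV vs WT as well, with at most 3 genes of a list at an unadjusted p under 0.05.

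Relatives of these genes were followed in a list of 13 genes, which holds further members of the PGC-1, PPAR, RXR, ERR, NR4A and thyroid receptor families, the GABP partner subunits and the factor Yy1. In KO vs WT 1 of 13 was called, Nr4a3, an exercise-induced orphan receptor, lower at a log2 fold change of -1.75 (SE 0.47, adjusted p = 0.0223, limma). Its counts were 757, 927, 3029.8 and 698 in WT and 185 to 491 in KO, without overlap and with WT mouse 3 far above the rest. In AAV vs KO 5 of 13 were called. Nr4a3 rose by 1.68 (adjusted p = 0.0231) and Esrrb by 1.35 (adjusted p = 0.04996), while Rxra fell by 0.65 (adjusted p = 0.0199), Rxrb fell by 0.47 (adjusted p = 0.0151) and Nr4a2 fell by 2.17 (adjusted p = 0.0195). Pprc1, the third PGC-1 family member, ranged from 555 to 818 over the 12 libraries, with log2 fold changes of -0.16 (adjusted p = 0.338) and 0.14 (adjusted p = 0.473). The list's call count ranged from 0 to 3 in KO vs WT (2 higher and 1 lower without WT mouse 3, 1 higher and 2 lower without WT mouse 2) and from 1 to 6 in AAV vs KO when single libraries were left out.

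Of 29 genes that feed into PGC-1 (AMPK subunits, calcium signalling, p38, CREB and MEF2 factors, sirtuins), 7 were called higher and 1 lower in KO vs WT, and 1 higher and 7 lower in AAV vs KO. Both come to 27.6% of the list, where 27.6% and 26.3% of all genes were called. The list's median log2 fold change was 0.30 against 0.02 over all genes in the first, and -0.10 against 0.04 in the second. Prkag2, a regulatory subunit of AMPK, was the lower call, with 561 to 1661 counts in WT, 327 to 393 in KO and 575 to 829.6 in AAV (-1.53, adjusted p = 0.0052, and 0.89, adjusted p = 0.0050, limma). Mef2a, a factor that acts on the Ppargc1a promoter, was counted at 1949.6 to 4403 in WT, 5069.7 to 6132 in KO and 2245 to 3440.2 in AAV (0.88, adjusted p = 0.0198, and -0.91, adjusted p = 0.0039). Mapk14, the p38α kinase that activates PGC-1α, had fold changes of 0.76 (adjusted p = 0.0128) and -0.93 (adjusted p = 0.0164), and the calcium kinase Camk2a had 0.83 (adjusted p = 0.0070) and -0.50 (adjusted p = 0.0605). Without WT mouse 3 the count of calls in KO vs WT rose from 8 to 18 (13 higher and 5 lower), and over all fits without a library it ranged from 3 to 18.

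Among 18 corepressors and partners, 5 were called in KO vs WT, all higher, and 6 in AAV vs KO, of which 5 were lower. These are 27.8% and 33.3% of the list, against 27.6% and 26.3% of all genes. Nrip1 (RIP140), a corepressor of the ERRs and PPARs, was counted at 426 to 728 in WT, 1007 to 1248 in KO and 506 to 759 in AAV, so that the KO libraries overlapped neither group (0.94, adjusted p = 0.0057, and -0.77, adjusted p = 0.0081, limma). Ncoa2, a receptor coactivator, had 0.69 (adjusted p = 0.0382) and -0.72 (adjusted p = 0.0108). Lpin1, a coactivator of PGC-1α with PPARα, had 0.82 (adjusted p = 0.0139) and -0.34 (adjusted p = 0.174), and Ncoa3 had 0.71 (adjusted p = 0.0146) and 0.22 (adjusted p = 0.245). The remaining call in KO vs WT was Ncoa1 (0.50, adjusted p = 0.0434). The list's calls ranged from 3 to 8 (8 higher without WT mouse 3) and from 4 to 6 when single libraries were left out.

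Of 18 genes that act on mitochondrial DNA beside Tfam, 2 were called in KO vs WT and 2 in AAV vs KO, with medians of -0.09 and -0.02. Ssbp1, which coats single-stranded mitochondrial DNA, was at 485 to 589 in WT, 353 to 429.7 in KO and 469 to 700.1 in AAV (-0.45, adjusted p = 0.0268, and 0.48, adjusted p = 0.0400, limma). Rrm2b, a ribonucleotide reductase subunit that supplies nucleotides to it, was at 199.9 to 805 in WT, 711 to 815 in KO and 169.8 to 436 in AAV (1.14, adjusted p = 0.0434, and -1.33, adjusted p = 0.0075). Rrm2b is also a target of p53. The count ranged from 0 to 4 in KO vs WT (4 without WT mouse 3) and from 1 to 3 in AAV vs KO when single libraries were left out.

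Among 18 PPAR-responsive genes, Acadl (-0.68, adjusted p = 0.0096, limma), an acyl-CoA dehydrogenase of fat oxidation, and Pdk4 (-0.997, adjusted p = 0.0385) were called lower in KO vs WT, and Pdk4 (0.88, adjusted p = 0.0454) was called higher in AAV vs KO. Pdk4, the kinase that shuts glucose out of the citric acid cycle, had counts of 9986 to 26513 in WT, 6484 to 11652 in KO and 12407 to 27432 in AAV. Of 18 ERR-responsive and citric acid cycle genes, Sdhd (-0.55, adjusted p = 0.0073) and Sdhb (-0.50, adjusted p = 0.0470), subunits of succinate dehydrogenase, were the 2 called in KO vs WT. Sdha, another subunit, lay the other way without being called (0.39, adjusted p = 0.0675, and -0.61 in AAV vs KO, adjusted p = 0.0551). In AAV vs KO 4 of the 18 were called, all higher: Sdhd (0.39, adjusted p = 0.0281), Sdhc (0.42, adjusted p = 0.0382), Ogdh (0.38, adjusted p = 0.0310) and Vegfa (0.74, adjusted p = 0.0262). Without AAV mouse 3 the calls were 3 higher and 2 lower. The medians of the 2 lists were -0.18 and -0.14 in KO vs WT, and 0.19 and -0.14 in AAV vs KO.

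Of 18 genes of mitochondrial mass, import and fusion, 4 were called in KO vs WT, all lower: Cox4i1 (-0.84, adjusted p = 0.0078, limma), Fis1 (-0.75, adjusted p = 0.0132), Tomm20 (-0.69, adjusted p = 0.0105) and Tomm22 (-0.50, adjusted p = 0.0257). In AAV vs KO Cox4i1 (0.57, adjusted p = 0.0141), Fis1 (0.63, adjusted p = 0.0048) and Tomm40 (0.41, adjusted p = 0.0265) were called higher, and Tomm70a (-0.72, adjusted p = 0.0091) and Opa1 (-0.56, adjusted p = 0.0268) lower. Cox4i1, a subunit of cytochrome c oxidase, was counted at 28705 to 43692 in WT and 17904 to 21209.8 in KO. The 3 target lists ranged from 1 to 6, 1 to 8 and 3 to 8 calls in KO vs WT when single libraries were left out, highest without WT mouse 3 (2 higher and 4 lower, 5 higher and 3 lower, and 3 higher and 5 lower), and from 0 to 3, 0 to 5 and 3 to 6 in AAV vs KO. Reads on mitochondrially encoded genes took 3.64%, 5.75%, 6.00% and about 10% of the WT libraries, 6.28% to 8.24% of each KO library and 3.11% to 6.75% of each AAV library. The KO range lay inside that of WT, and 3 of 4 AAV libraries lay below every KO library.

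Other changes moved with these groups. In bulk muscle, fewer cells or fibres of a type and less RNA per cell cannot be told apart. Of 10 slow and oxidative fibre genes, 9 were called lower in KO vs WT and 8 higher in AAV vs KO (4 to 9 and 7 to 10 with a library left out, 4 without WT mouse 2). Their summed count was 38852 to 152538 in WT, 19902 to 63612 in KO and 57202 to 237081 in AAV. Myh7, the slow myosin, was at 11.1 to 14.5 in KO, 15.4 to 248 in WT and 41.3 to 4306 in AAV. WT mouse 3 and AAV mouse 2, the libraries highest for most of the regulators, were also the highest of their groups in this sum, and the part of fibre type in the regulators' differences was not tested. Of 10 fast fibre genes 2 were called in KO vs WT and 1 in AAV vs KO (0 to 3 in both with a library left out).

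Of 10 macrophage genes, 6 were called lower and 1 higher in KO vs WT and 0 in AAV vs KO, where 3 had an unadjusted p under 0.05 (limma) and 9 of 10 fold changes were above 0. With a library left out, 4 to 9 were called in KO vs WT and 0 to 4 in AAV vs KO (4 without AAV mouse 3). Their sum was 1566 to 4966 in WT, 888 to 1616 in KO and 942 to 4507 in AAV, with WT mice 1, 2 and 4 and AAV mouse 4 at 4118 or more. Cd68, a lysosomal protein of macrophages, was at 28.2 to 36.7 in KO and 69.8 to 589.99 in WT. Endothelial genes were called higher for 4 of 7 in KO vs WT (sum 2016 to 5262 in WT, 5019 to 6400.0 in KO), and clock genes for 6 of 13 (sum 20854 to 25690.5 and 27141 to 33414), and the time of day of harvest is not given in the sources used here. These counts ranged from 2 (endothelium, without WT mouse 2) to 6 and from 2 to 8 (clock) with a library left out, both highest without WT mouse 3. KO mouse 3 held the largest adipocyte sum (16605, the others 3083 to 10009.5) and 194 counts of Ucp1, the brown fat uncoupling protein that PGC-1α induces, which was at 0 to 2.36 elsewhere. Adipocyte, fibroblast and Schwann cell lists held 0 calls in KO vs WT, with 1 gene each at an unadjusted p under 0.05, and 0 in AAV vs KO, with 0 at that level (limma). The blood list held 0 and 2 calls and the satellite cell list 1 and 1. With a library left out, the 5 lists (adipocyte, fibroblast, Schwann cell, blood and satellite cell) had at most 1, 2, 2, 1 and 4 calls in KO vs WT and 2, 1, 1, 3 and 1 in AAV vs KO, and each fell to 0 in at least 1 such fit. The 4 satellite cell calls, all lower, were found without WT mouse 3. KO mouse 3 had the highest Ppargc1b (464) of its group and was the lowest for 5 of the 10 regulators (Ppard, Rxrg, Nrf1, Gabpa and Tfam), against 28.8% of all genes. Without that mouse the log2 fold changes in KO vs WT were -0.83 for Ppargc1b (adjusted p = 0.0395) and 1.01 for Rxrg (adjusted p = 0.0365). The part of these other cells in the regulators' differences was not tested.

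**Figure D5:**
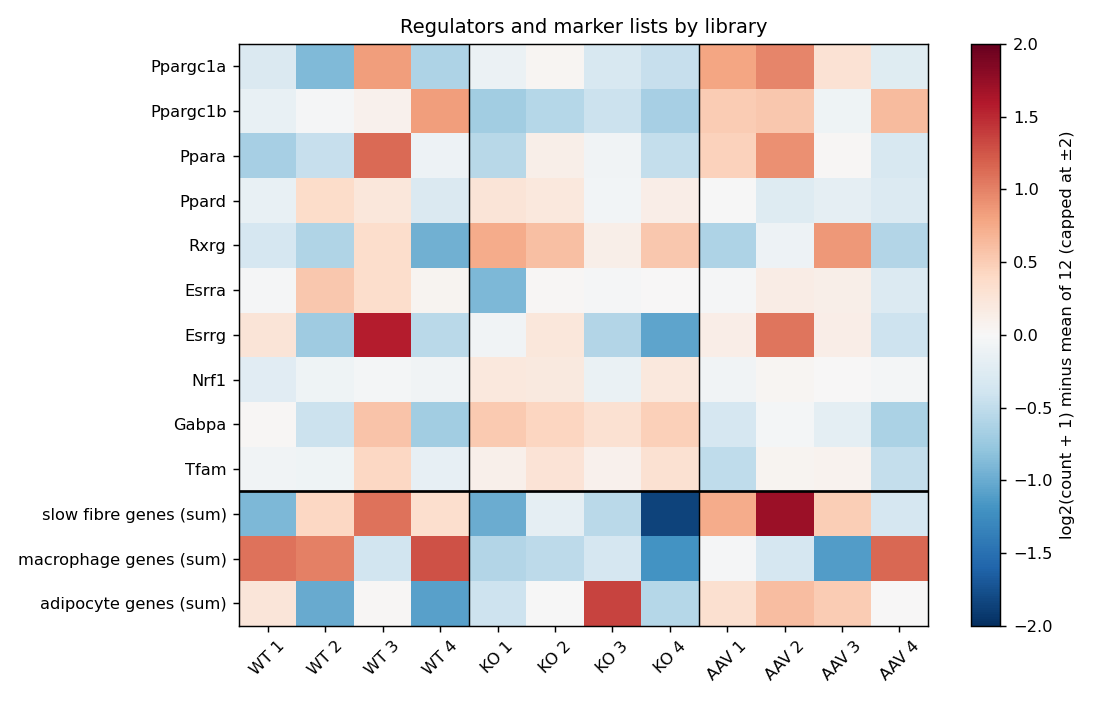
Log2(normalized count + 1) of each regulator, minus its mean over the 12 libraries, with the summed slow fibre, macrophage and adipocyte genes below the line, for libraries labelled WT, KO and AAV 1 to 4 (colours capped at ±2). WT 3 and AAV 2 are high in the Ppargc1a, Ppara and Esrrg rows and in the slow fibre row, whereas Ppargc1b is low in all 4 KO columns.

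The genes whose pattern over the 12 libraries was most like that of Ppargc1a were sought by the root mean square difference of mean-centred log2(normalized count + 1), among 9744 genes with a mean of at least 100. Pkp4, which encodes a junctional plakophilin, was closest at 0.16, followed by 3110057O12Rik at 0.18 and Zbtb16, a zinc finger factor, at 0.26, where Ppargc1a itself had a standard deviation of 0.60. For Esrrg, the most variable of the 10, the closest were 3110057O12Rik (0.34), 2310042D19Rik (0.34) and Angpt1 (0.34), against a standard deviation of 0.75. In GENCODE M21 the symbol of 2310042D19Rik is Perm1, a muscle gene known as a target of PGC-1 and the ERRs. These points share libraries and their scaling, and the likeness is a description.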

How the data were processed

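Quadriceps RNA of 12 mice was analysed. Per the submitters' processing notes and the study's methods, reads were trimmed (Trim Galore 0.4.1, FastQC 0.11.2), mapped with STAR to GRCm38, kept when mapped to a single place, counted per gene with HTSeq 0.6.1 and divided by DESeq2 1.16.1 size factors. The deposited signal values are these normalized counts, in 2 tables of 15344 genes. The authors' tables also hold log2 fold changes with standard errors, Wald scores and p-values of their own comparisons, which were not used. KO values differed by 0 between the tables, which put all 12 libraries on one scale. Every value was a whole multiple of 1 step per library (100% within a tolerance of 0.1), so whole reads were recovered. No per-sample column was left unmapped (0).

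edgeR had been planned as the main test for raw counts. The values being normalized, log2(value + 1) was instead fitted by limma (trended variance), each comparison on its own 8 libraries. Genes that never reached 10 there were dropped, and p-values were adjusted after Benjamini and Hochberg. The added 1 understates fold changes of low genes. The scripts were tested on simulated data. DESeq2 1.42.0 on recovered reads called 4864, 4775 and 935 genes in KO vs WT, AAV vs KO and AAV vs WT, edgeR 4.0.16 called 3979, 4027 and 163, and limma 3.58.1 called 4097, 3910 and 193. Exon length, GC content (for 99.0% of genes) and overlaps came from GENCODE M21 on GRCm38, and 224 of 225 listed genes were matched. Alternatives were these count tests, total-read scaling, other filters and pseudocount, a fit of all 12 mice, a replicate block, GC and length corrections, and each library left out. Software was R 4.3.3 and Python 3.11.15.

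The members and the gene lists were chosen with earlier results of these data known. Beside the 10 members and Gaa, the genes named are up to 4 per regulator or target list with the lowest p in KO vs WT, or up to 4 of the most abundant of the fibre, clock and other cell lists, any gene of a count of 5 or fewer, and the 3 genes most like Ppargc1a and Esrrg. Nr4a2, Sdhc, Ogdh, Vegfa, Tomm40, Tomm70a, Opa1, Gabpb1, Gabpb2, Pprc1, Myh7, Cd68, Ucp1 and Perm1 fall under these counts or were named after their values were seen. Not every called gene of the lists is reported here. The replicates are separate mice, and the numbers were not taken to pair them. Intervals of depth are not given, since between-mouse spread sets the precision.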

Additional observations from a re-analysis of the deposited data

Results flagged for a closer look

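In 39 groups of 4 libraries examined (the 10 regulators, Gaa, total reads and the mitochondrial share of reads in 3 groups each), 5 held 1 library far from the others by Dixon's criterion, where chance gives about 1 in 20. Esrra was at 2234 normalized counts in KO mouse 1 and at 4089 to 4253 in the other KO mice. Nrf1 was at 358 in KO mouse 3 against 447 to 455. Tfam was at 1861 in WT mouse 3 against 1237 to 1332. Gaa was at 14640.2 in WT mouse 2 against 324 to 460.3, and at 9854 in AAV mouse 4 against 499.6 to 947.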

How the results depend on the processing

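With other settings, 90 of 100 member values in KO vs WT, 89 of 100 in AAV vs KO and 107 of 110 in AAV vs WT kept direction and side of the threshold, and with 1 library left out 63, 76 and 75 of 80 did. The cause of the exceptions was not tested. Of the regulators called in KO vs WT (2), 1 was called in the fit of all 12 mice, with a replicate block and with a GC correction, and 0 to 4 with a library left out (0 without KO mouse 1, 2 or 4, and 4 without WT mouse 3). In AAV vs KO (2), 4 were called by DESeq2 and with the GC correction, and 2 to 4 with a library left out. All genes called ranged from 2353 to 7163 in KO vs WT (without WT mice 4 and 3) and from 1961 to 5071 in AAV vs KO (without KO mouse 4 and AAV mouse 3). In AAV vs WT (193) they were 935 by DESeq2, 318 scaled by total reads, 127 with no filter, 901 with all 12 mice, 113 with a length correction, 18 to 442 with a library left out (without AAV mouse 2 and WT mouse 3), and 10 without WT mouse 2 and AAV mouse 4. Same-numbered mice are different animals whose deviations correlated at -0.14 to 0.0946 in KO and WT, -0.238 to 0.105 in AAV and KO, and -0.054, -0.475, 0.647 and 0.554 in AAV and WT mice 1 to 4, so not every pair was positive and the numbers were not taken to pair them. With the replicate block, all genes called were 3062, 2179 and 132. Signs turned in KO vs WT for Ppargc1a (-0.14 by DESeq2, -0.13 by edgeR, -0.26 with GC and -0.17 with length correction, -0.20 to 0.38 with a library left out), Tfam (-0.0032, GC), Ppard (-0.11, length, and -0.0049 to 0.21), Nrf1 (-0.0503, length) and Ppara (-0.44 to 0.16). They turned in AAV vs KO for Nrf1 (0.0305 scaled by total reads, 0.0152 with GC and 0.0248 with length correction) and Esrra (-0.0098 to 0.30), and in AAV vs WT for Esrrg (-0.12 by DESeq2, -0.11 by edgeR, -0.20 to 0.56), Nrf1 (-0.0228, length), Gabpa (-0.36 to 0.0632) and Rxrg (-0.0508 to 0.52). The call counts of the gene lists with a library left out were chosen after seeing the data.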
